A study of Mus musculus with 128 samples.

Results

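The serine/arginine-rich splicing factor genes (Srsf) and the heterogeneous nuclear ribonucleoprotein genes (Hnrnp) were followed across 8 tissues of ageing mice. The tables hold 55285 gene symbols, of which 34 have an Srsf symbol with a number or an Hnrnp symbol with a letter. After 3 pseudogenes were left out, 31 genes remained, 11 Srsf and 20 Hnrnp, and each reached a mean of 10 normalised reads in at least 1 tissue. Messenger RNA had been sequenced at 6, 15, 24 and 30 months of age from skin, gastrocnemius (Muscle), lung, liver, kidney, heart, brain and aorta, with 4 libraries for every tissue and age. All groups come from untreated wild-type male C57BL/6J mice, and age is the only difference between the groups of a tissue. For Aorta only the sample titles state the age, and sex and strain come from the design text of the series. No label says that the 4 libraries of a group came from separate mice, or that tissues were taken from the same mice, so p-values measure the spread between these libraries.

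Splicing removes introns from a pre-mRNA, and the exons that are kept depend on proteins that bind near the splice sites. SR proteins carry RNA recognition motifs and a domain rich in arginine and serine; they mostly bind exonic enhancers and help the spliceosome to recognise an exon. Proteins of the hnRNP group coat nascent transcripts, often oppose exon inclusion, and also act in export, stability and translation of mRNA. Many SR and hnRNP genes hold back their own output: their protein favours a transcript with a premature stop codon, which nonsense-mediated decay removes. Reads summed over a gene, as used here, do not separate such transcripts from those that make protein.

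Library depth ran from 7.65 M to 82.8 M reads, and 4 markers of each labelled tissue were highest in that tissue among the 8. In 3 tissues 1 library lay apart by its median rank correlation with the others of its tissue: Heart at 24 months replicate 4 (0.914, with 7.65 M reads), Liver at 30 months replicate 3 (0.934) and Muscle at 30 months replicate 3 (0.969). Results are also given without them. Values below are the deposited ones, called normalised reads: reads divided by a size factor per library, set within each tissue's table. Changes are log2 fold changes against 6 months on the scale log2(normalised reads + 1) ± SE, with 4 libraries per age. Adjusted p-values are those of limma-trend over all genes of a tissue, with Benjamini-Hochberg adjustment, and a gene rose or fell where that p was under 0.05.

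Of the 31 genes, 30 were measured well enough to test in every tissue. The exception was Srsf12, an SR-like gene, which passed the filter on low values in Brain alone. Its reads per brain library ran from 189 to 759, while Liver and Muscle had 1 read each over all 16 libraries and no tissue but Brain had more than 12 in a library. At 6 months the other 30 genes were highest in Skin (14 genes), Lung (8), Brain (7) or Aorta (1), and lowest in Heart (19), Liver (7) or Muscle (4), in RPM, the reads of a gene scaled to the total of its library. These levels are set across separately normalised tables, and mitochondrial transcripts took 34.6 to 35.8% of reads in Heart against 3.24 to 3.68% in Lung at 6 months. Srsf3 varied most, from 48.5 ± 7.06 RPM in Liver (SD, n = 4) to 326 ± 13.9 in Skin, 6.72-fold. Between these ends its order was Muscle (62.2 ± 4.67), Heart (68.9 ± 1.83), Kidney (96.6 ± 9.56), Aorta (156 ± 30.8), Brain (159 ± 15.5) and Lung (192 ± 13.6). Neighbours in this order overlapped between Muscle and Heart and among Aorta, Brain and Lung. Hnrnpa2b1, which encodes an RNA-binding protein of the hnRNP core, varied least among the 30 genes, 2.1-fold.

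The genes share features that were not used to choose them. In GENCODE M21 models, 19 of the 31 (61.3%) have a transcript annotated as a target of nonsense-mediated decay, 9 of 11 Srsf and 10 of 20 Hnrnp genes. The share is 30.3% among 10792 protein-coding genes tested in all 8 tissues, though these have a median of 5 transcripts against 7 for the 31 genes. RefSeq promoter windows, the 250 bases before a gene's start in GRCm38.p6, were found for 29 of the genes (41 windows). Their median was 23 CG dinucleotides against 6 over all 32851 windows. Here and for the motifs below, the comparison is with all windows and not with those of genes tested in all 8 tissues. Whether broadly expressed genes in general share these features was not tested. The letters GGGCGG, on either strand, were in 80.5% of the 41 windows and in 32.7% of all windows. CCGGAA was in 15 of the 41 windows and in 3952 of all 32851. The other shares were, for CCAAT, 48.8% against 33.8%, for TATAAA 7.32% against 12.4% and for CACGTG 7.32% against 6.02%. A match is a run of letters and not a measured binding site. The windows below belong to the genes the results turn on: Hnrnpc and Hnrnph3, lower at 30 than at 6 months in every tissue, and Srsf3, whose change differed most between tissues. Each is written from its 5′ end on the gene's strand, with any of the 5 motifs, on either strand, in capitals; no matches overlap.
Hnrnpc, chr14:52104022-52104271, minus strand: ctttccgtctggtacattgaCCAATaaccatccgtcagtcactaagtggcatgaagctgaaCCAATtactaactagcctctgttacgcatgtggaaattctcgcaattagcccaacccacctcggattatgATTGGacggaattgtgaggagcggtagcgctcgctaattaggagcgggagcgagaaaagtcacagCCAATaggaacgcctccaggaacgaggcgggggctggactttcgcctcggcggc
Hnrnph3, chr10:63023850-63024099, minus strand: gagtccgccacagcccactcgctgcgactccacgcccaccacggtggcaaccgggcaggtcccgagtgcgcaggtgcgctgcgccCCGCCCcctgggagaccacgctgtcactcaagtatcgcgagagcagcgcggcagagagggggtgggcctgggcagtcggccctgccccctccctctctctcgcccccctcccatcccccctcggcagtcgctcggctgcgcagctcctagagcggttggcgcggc
Srsf3, chr17:29032410-29032659, plus strand: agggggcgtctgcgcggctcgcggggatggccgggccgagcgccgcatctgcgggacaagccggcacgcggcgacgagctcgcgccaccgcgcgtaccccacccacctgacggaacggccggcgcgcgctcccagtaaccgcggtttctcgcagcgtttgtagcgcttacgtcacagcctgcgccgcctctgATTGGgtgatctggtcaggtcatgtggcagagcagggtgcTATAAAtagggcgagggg
The Hnrnpc window holds 4 CCAAT matches, 1 of them on the other strand. Hnrnph3 has a single GGGCGG on the other strand, and Srsf3 has a CCAAT on the other strand and a TATAAA.

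Changes with age in these genes were few and small. Of 241 pairs of gene and tissue tested at each age, 20 changed at 30 months (8.3%), where 12.9% of all 122993 pairs did. Of the 20, 10 were higher (6.84% of all pairs were) and 10 lower (6.09%). At 24 months 11 changed (4.56%, against 6.55% of all pairs), of which 1 was higher (4.04%) and 10 lower (2.52%). At 15 months 2 changed (0.83%, against 0.599%), both of them lower (0.164%). No tested pair reached a 2-fold change, and the changes that passed at 30 months spanned 0.161 to 0.535 in size on the log2 scale. The 95% interval of the change lay within 1.5-fold in either direction for 234 of 241 pairs at 30 months, 231 at 24 months and 237 at 15 months. For the 2-fold and 1.5-fold limits the matching share of all pairs was not computed. The median size of change of the Srsf and Hnrnp genes at 30 months was below that of all tested genes in each tissue. Examples are 0.12 against 0.20 in Kidney and 0.10 against 0.26 in Liver. All tested genes reach down to the filter on low values, where changes are measured less precisely, and the comparison was not matched for level. Of the 31 genes, 15 passed the threshold in no tissue at any age, among them Srsf12, tested in Brain alone. The matching share of all genes was not computed, so this count cannot be called few or many. In bulk tissue, fewer cells of a type and less RNA per cell cannot be told apart.

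**Figure D1:**
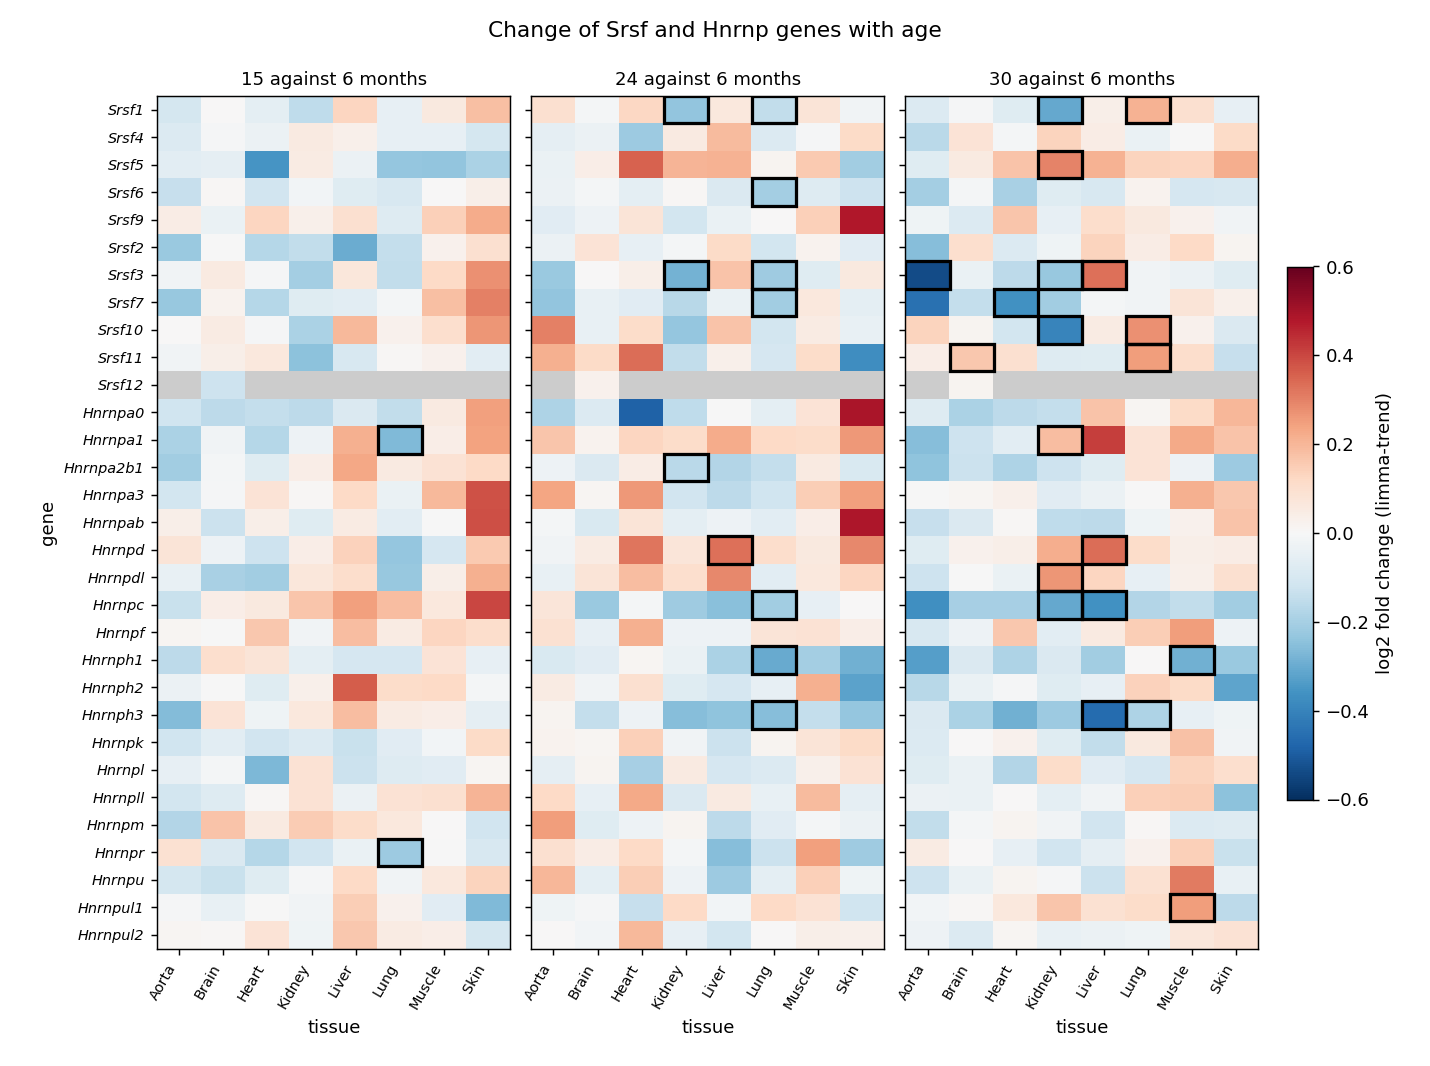
Colour shows the log2 fold change against 6 months for each of the 31 genes (rows) in each tissue (columns), at 15, 24 and 30 months; black frames mark adjusted p under 0.05 (limma-trend) and grey cells were not tested. The 30-month panel has 20 frames, of which 7 are in Kidney, and the Hnrnpc and Hnrnph3 rows are blue in all 8 tissues.

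By tissue, the changed genes at 30 months numbered 7 of 30 in Kidney (28.3% of all genes changed there), 4 in Liver (24.9%), 4 in Lung (19.4%) and 2 in Muscle (13.1%). Aorta had 1 of 30 (5.67% of all genes), Brain 1 of 31 (7.5%) and Heart 1 of 30 (5.15%). In Skin 0 of 30 passed in limma-trend, where 0.72% of all genes did; 2 had an unadjusted p under 0.05, and edgeR and DESeq2 called 0 as well. At 24 months Lung had 7, all lower, where 15.1% of all genes changed and 6.23% were lower. Kidney had 3, also all lower (10.6% changed, 3.9% lower), and Liver had 1 (11.6%). Aorta (5.81% of all genes), Brain (0.667%), Heart (4.92%), Muscle (1.77%) and Skin (1.84%) had 0 in limma-trend. In those 5 tissues 3 to 6 genes had an unadjusted p under 0.05; edgeR called 1 in Skin, and DESeq2 called 1 in Aorta, 1 in Muscle and 3 in Skin. At 15 months the 2 genes that changed were in Lung, where 1.63% of all genes changed and 0.386% were lower. The other tissues had 0, with 0.0868% of all genes in Aorta, 0.0247% in Brain, 0.587% in Heart, 0.48% in Kidney, 1.23% in Liver, 0.604% in Muscle and 0.173% in Skin. In these 7 tissues 2 to 8 of the Srsf and Hnrnp genes had an unadjusted p under 0.05, edgeR called none and DESeq2 called 1 in Liver. In each tissue and age with a call other than Lung at 15 and 24 months, the share of these genes that changed was below that of all genes. That order belongs to the main fit. Without Heart library 4 of 24 months, 7 of 30 genes passed in Heart at 30 months, against 15.3% of all genes. In Lung at 24 months 4 passed with TMM scaling, 3 without the filter on low values and 2 without library 2 of 24 months. The share of all genes in these Lung fits is not given here, so whether the order held in them is not shown.

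**Figure D2:**
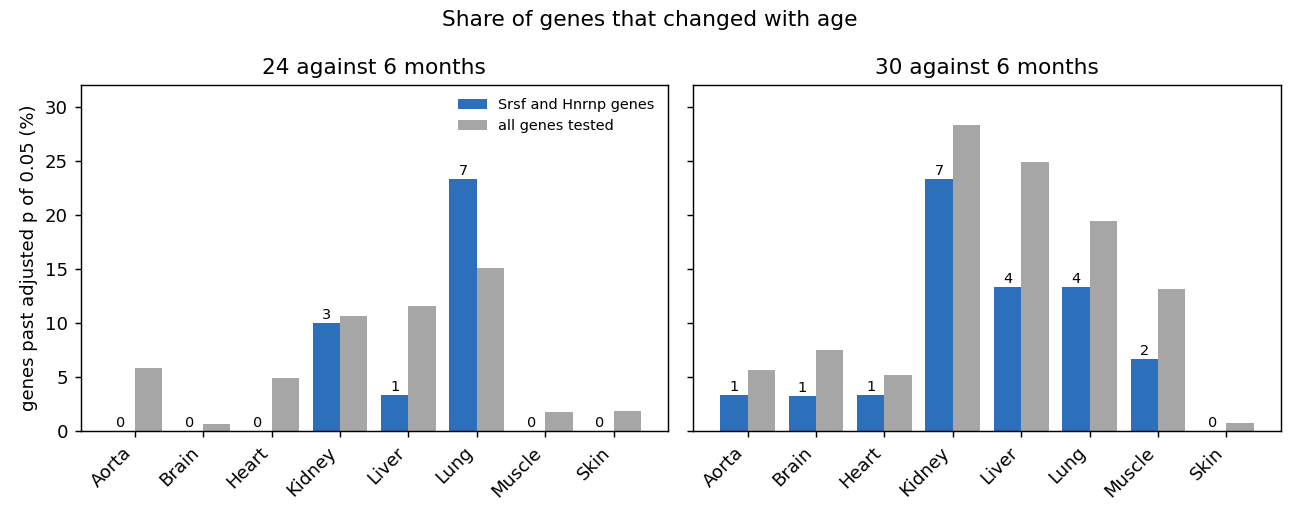
Bars give the percentage of genes past an adjusted p of 0.05 (limma-trend) at 24 and 30 against 6 months, for the Srsf and Hnrnp genes (blue, with their number) and for all genes tested in that tissue (grey). The blue bar exceeds the grey one in Lung at 24 months, 23.3% against 15.1%, and in no other case shown.

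Srsf3 encodes the smallest SR protein, with 1 RNA recognition motif, which acts in splicing, polyadenylation and mRNA export. It changed in 3 tissues at 30 months, more than any other of the genes, and in both directions. In Aorta it had 2240, 2851, 3200 and 2321 normalised reads at 6 months and 1989, 1856, 1747 and 1669 at 30 months. The 30-month libraries all lay below the 6-month ones, and the fall was 0.69-fold (log2 change -0.535 ± 0.143, adjusted p = 0.0402). That adjusted p rose to at most 0.109 without any one of Aorta libraries 2 and 3 of 6 months, 3 and 4 of 24 months or each of the 4 of 30 months, and the call was also lost without the filter on low values (0.0607). In Kidney Srsf3 had 1463, 1692, 1613 and 1813 normalised reads at 6 months and 1385, 1436, 1452 and 1335 at 30 months, again without overlap (log2 change -0.23 ± 0.07, adjusted p = 0.028). It had already fallen there at 24 months, to 1333, 1485, 1315 and 1272, a range that overlaps the lowest 6-month library (-0.28 ± 0.07, adjusted p = 0.0206). Leaving out library 2 or 4 of 6 months ended both Kidney calls; so did 1 or 4 of 30 months for the first (at most 0.0925) and 3 or 4 of 24 months for the second (at most 0.0691).

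In Liver Srsf3 moved the other way. Its 6-month libraries had 1222, 1030, 985.3 and 907.9 normalised reads and the 30-month ones 1359, 1156, 1426 and 1263. Only the highest 6-month library reached into the 30-month range, and the rise was 1.26-fold (log2 change 0.33 ± 0.11, adjusted p = 0.0369). The call ended, with adjusted p up to 0.114, without library 2, 3 or 4 of 6 months or 1 or 3 of 30 months. It was also lost without the filter (0.0585) and with the 2 ages fitted alone (0.0667). In Lung Srsf3 fell at 24 months (-0.21 ± 0.06, adjusted p = 0.0266; at most 0.0759 without library 1 or 3 of 6 months or 2, 3 or 4 of 24 months, and 0.0504 without the filter) and stood at -0.02 at 30 months. Brain, Heart, Muscle and Skin had changes of -0.039, -0.155, -0.033 and -0.072 at 30 months, none past the threshold.

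**Figure D3:**
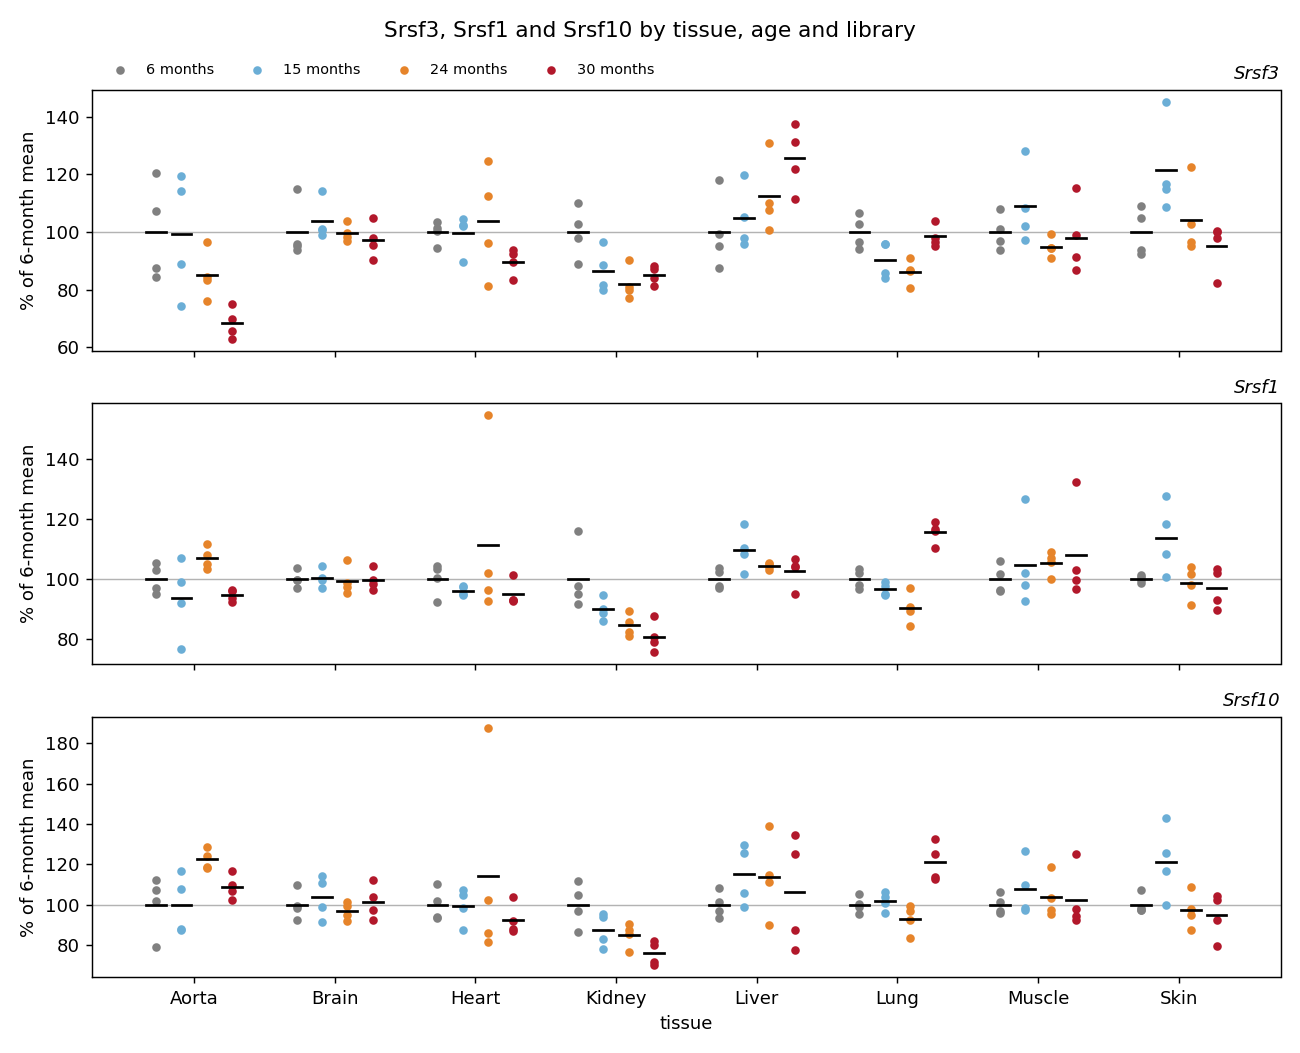
Each point is 1 library, as a percentage of the mean of the 4 libraries of 6 months in that tissue; bars mark the mean of 4 libraries, and colours the age, for Srsf3, Srsf1 and Srsf10. Srsf3 at 30 months lies below its 6-month libraries in Aorta and Kidney and mostly above them in Liver, while Srsf1 and Srsf10 lie below in Kidney and above in Lung; the high Heart point at 24 months in the lower panels is replicate 4.

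Srsf1, the founding SR protein and a regulator of 5′ splice site choice, also moved in opposite directions in 2 tissues. In Kidney it had 1989, 2126, 2064 and 2525 normalised reads at 6 months and 1642, 1755, 1719 and 1905 at 30 months, with no overlap (log2 change -0.31 ± 0.07, adjusted p = 0.00386). Its 24-month libraries, 1762, 1939, 1788 and 1859, were likewise all below the 6-month ones (-0.24 ± 0.07, adjusted p = 0.0357). The 24-month call ended without library 2, 3 or 4 of 6 months or 1, 3 or 4 of 24 months (adjusted p up to 0.0965) and without the filter (0.0602), while the 30-month call held in each of 16 fits without 1 library. In Lung Srsf1 had 3382, 3425, 3247 and 3205 at 6 months and 3654, 3948, 3845 and 3865 at 30 months, all higher (0.21 ± 0.05, adjusted p = 0.00807; held in each of the 16 fits). At 24 months Lung had 2958, 2789, 3002 and 3214, with a call at the edge of the threshold (-0.15 ± 0.05, adjusted p = 0.0497) that 14 of 16 such fits did not make, all but those without library 4 of 24 months or 2 of 30 months. It was also lost with edgeR (0.0582), TMM scaling (0.0503), 2 ages alone (0.103) and no filter (0.106). Both Lung comparisons use the same 6-month libraries, and the 24- and 30-month libraries do not overlap; the difference between those ages was not tested.

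Srsf10, an SR-like protein that represses splicing when dephosphorylated, showed the same pair of tissues. Its Kidney libraries had 782.7, 875.5, 946.9 and 1012 normalised reads at 6 months and 632.2, 646.2, 740.5 and 725.5 at 30 months. None overlapped, and the fall was 0.761-fold (-0.395 ± 0.088, adjusted p = 0.00354). Its Lung libraries had 1754, 1823, 1935 and 1849 at 6 months and 2077, 2440, 2298 and 2094 at 30 months, all higher (0.273 ± 0.065, adjusted p = 0.00899). Srsf11, another SR-like gene, rose in Lung from 2361, 2376, 2302 and 2391 to 2551, 3006, 2745 and 2961 (0.253 ± 0.055, adjusted p = 0.00514). These Kidney and Lung calls held in each of 16 fits without 1 library. In Brain Srsf11 rose from 2698, 2679, 2577 and 2647 to 2821, 2858, 3149 and 3037, without overlap (0.16 ± 0.05, adjusted p = 0.0414). This was the smallest change called at 30 months, and it was lost without any one Brain library of 6 months, 2 of 15 months, 1 of 24 months or 3 or 4 of 30 months (adjusted p up to 0.133), and with TMM scaling (0.0502), no filter (0.073) or 2 ages alone (0.0786).

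Srsf7, an SR protein with a zinc knuckle beside its recognition motif, fell in Heart at 30 months. It had 551.1, 530.6, 524.3 and 545.9 normalised reads at 6 months and 418.5, 408.1, 400.2 and 446.6 at 30 months, with no overlap (-0.36 ± 0.10, adjusted p = 0.0377). The call was lost, with adjusted p up to 0.106, without any one of the 4 Heart libraries of 6 months, 3 of 15 months or 1, 2 or 3 of 30 months, and without the filter (0.0599). Without replicate 4 of 24 months, the library that lay apart, 7 of 30 genes passed at 30 months in place of 1, and 15.3% of all genes in place of 5.15%. The 7 were Srsf7 (-0.36 ± 0.06, adjusted p = 0.000559), Hnrnph3 (-0.29), Hnrnpc (-0.20), Srsf6 (-0.19), Hnrnph1 (-0.19), Hnrnpa2b1 (-0.18) and, higher, Hnrnpf (0.16).

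Srsf5, whose protein has a pair of recognition motifs, rose in Kidney at 30 months from 3472, 3207, 3022 and 3237 normalised reads to 4120, 3726, 3929 and 4109, with no overlap (0.30 ± 0.07, adjusted p = 0.00511; held in each of 16 fits). Its direction there was opposite to that of Srsf1, Srsf3 and Srsf10 in the same libraries. Srsf6, of the same structure, fell in Lung at 24 months (-0.20 ± 0.05, adjusted p = 0.0148), and that call was lost without library 2 of 24 months (0.0564). Srsf7 also fell in Lung at 24 months (-0.21 ± 0.07, adjusted p = 0.0443), with 9 of 16 fits without 1 library losing the call: 1, 2 and 3 of 6 months, 1 and 3 of 15 months, 2, 3 and 4 of 24 months and 1 of 30 months (up to 0.137). TMM scaling (0.0527) and no filter (0.0762) lost it as well. Srsf2, Srsf4 and Srsf9 passed in no tissue: their 30-month changes spanned -0.255 (Aorta) to 0.133 (Liver), -0.16 (Aorta) to 0.13 (Kidney) and -0.08 (Brain) to 0.17 (Heart).

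Hnrnpc encodes the hnRNP C proteins, which bind runs of uridine in introns and keep cryptic exons out of mRNA. Hnrnpc was lower at 30 than at 6 months in all 8 tissues, by -0.15 (Muscle) to -0.37 (Aorta), and passed in Kidney and Liver. The share of all genes that were lower in all 8 tissues was not computed. Kidney had 1707, 1840, 2033 and 1817 normalised reads at 6 months and 1515, 1444, 1347 and 1670 at 30 months, without overlap (-0.31 ± 0.07, adjusted p = 0.00562; held in each of 16 fits). Liver went from 2030, 1885, 1847 and 2106 to 1593, 1464, 1376 and 1696, again without overlap (-0.36 ± 0.11, adjusted p = 0.021). The Liver call was lost without library 1 or 4 of 6 months or 2 or 3 of 30 months (up to 0.061). Without library 3 of 30 months, which lay apart, 3 of 30 genes passed in Liver, 2 of them among the 4 called with it (Hnrnpd and Hnrnph3). The share of all genes in that Liver fit is not given here. In between the level was not steadily falling: at 15 months the change was 0.17 in Kidney, 0.25 in Liver and 0.185 in Lung, none past the threshold. Lung had 2901 to 3336 normalised reads at 6 months, 3400 to 3796 at 15 months, 2603 to 3037 at 24 months and 2543 to 2946 at 30 months. The 24-month fall in Lung (-0.21 ± 0.07, adjusted p = 0.0448) overlapped the 6-month range and was lost with TMM scaling (0.0548), 2 ages alone (0.0658) and no filter (0.081), and in 10 of 16 fits without 1 library: 1, 3 and 4 of 6 months, 1, 3 and 4 of 15 months, 1, 2 and 3 of 24 months and 1 of 30 months (up to 0.13).

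Hnrnph3 and Hnrnph1 belong to the hnRNP F/H group, which binds runs of guanine. Hnrnph3 was lower at 30 months in all 8 tissues, from -0.02 (Skin) to -0.46 (Liver). In Liver it went from 239.1, 241.5, 263.2 and 300.0 normalised reads at 6 months to 189.4, 176.4, 180.2 and 208.1 at 30 months, with no overlap (-0.46 ± 0.14, adjusted p = 0.022; up to 0.0711 without library 3 or 4 of 6 months or 2 of 30 months, where the call was lost). In Lung its 885.4, 891.2, 876.3 and 852.1 at 6 months stood above 719.0, 724.7, 728.3 and 767.7 at 24 months (-0.25 ± 0.05, adjusted p = 0.00267). They also stood above 759.0, 808.9, 738.9 and 772.7 at 30 months (-0.19 ± 0.05, adjusted p = 0.0107), and both Lung calls held in each of 16 fits, though the 30-month one was lost with the 2 ages fitted alone (0.061). Hnrnph1 fell in Lung at 24 months from 6099, 6274, 6116 and 5926 to 4931, 4367, 5538 and 5013 (-0.30 ± 0.06, adjusted p = 0.00562) and was back at 5725, 6380, 6205 and 6138 at 30 months (0.00 ± 0.06). In Muscle it fell at 30 months, from 1991, 2251, 2316 and 2253 to 1768, 1799, 1995 and 1652 (-0.29 ± 0.07, adjusted p = 0.0129), with 1 library of 30 months just inside the 6-month range. Both Hnrnph1 calls held in each of 16 fits, though the Muscle one was lost with the 2 ages fitted alone (0.0538). Hnrnph2 and Hnrnpf passed in no tissue, with 30-month changes of -0.32 (Skin) to 0.14 (Lung) and -0.10 (Aorta) to 0.25 (Muscle).

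**Figure D4:**
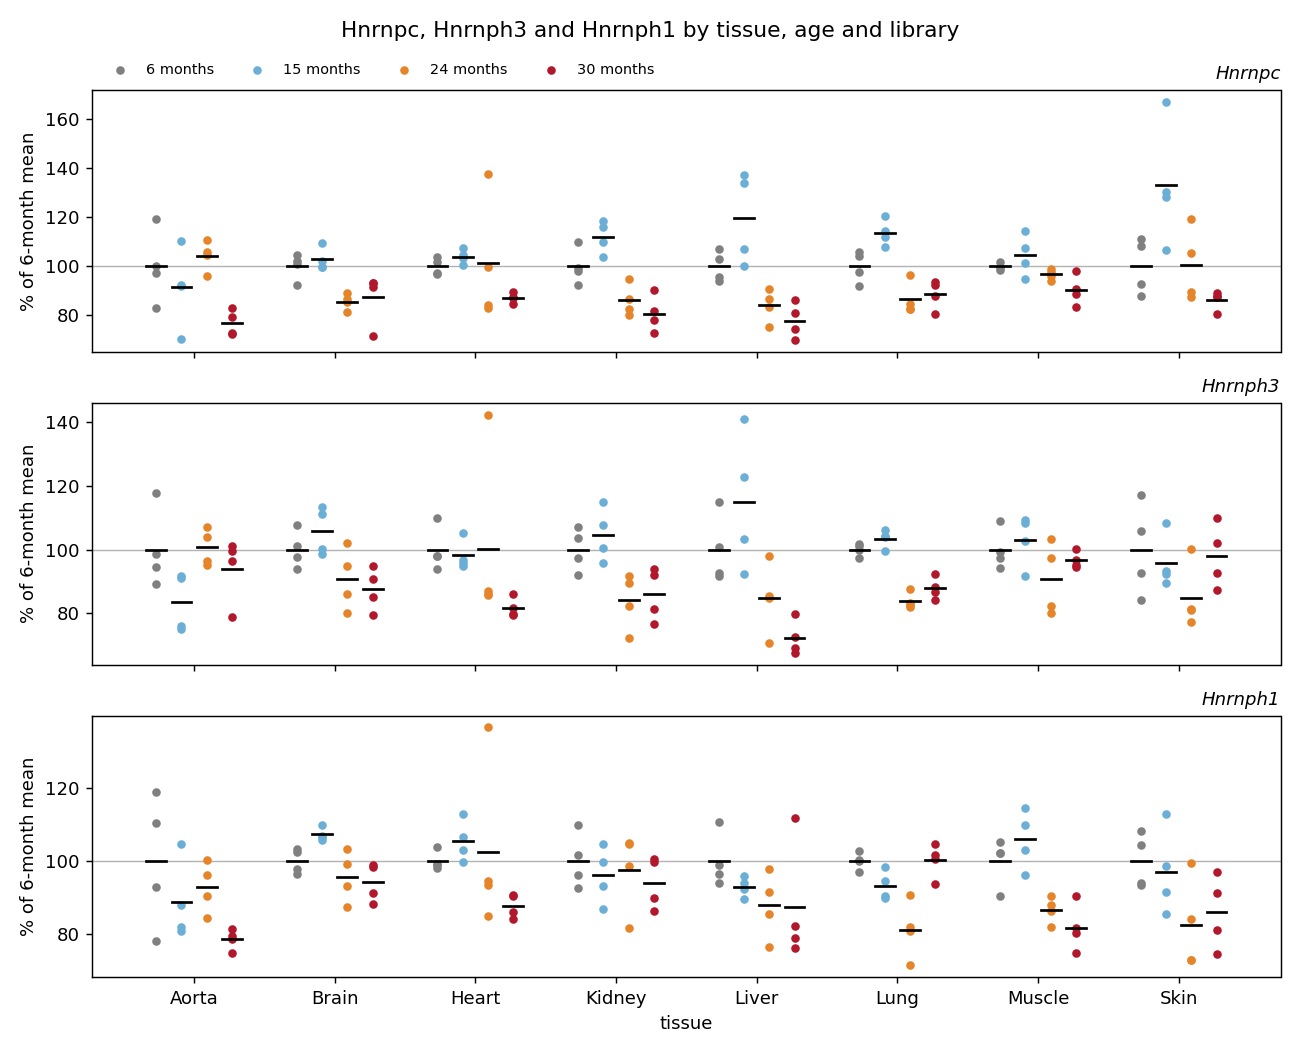
Each point is 1 library, as a percentage of the mean of the 4 libraries of 6 months in that tissue; bars mark the mean of 4 libraries, and colours the age, for Hnrnpc, Hnrnph3 and Hnrnph1. The mean at 30 months is under 100% in every tissue for Hnrnpc and Hnrnph3, whereas Hnrnph1 in Lung dips at 24 months and is at its 6-month level at 30 months.

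In the hnRNP A/B and D group, 3 pairs of gene and tissue rose at 30 months. Hnrnpd, which encodes AUF1, a protein that binds AU-rich elements of unstable mRNAs, rose in Liver from 517.7, 589.3, 527.9 and 484.7 normalised reads to 752.1, 625.1, 666.6 and 632.6 (0.335 ± 0.094, adjusted p = 0.0163). The 24-month libraries were as high, 770.4, 667.6, 604.9 and 628.2 (0.33 ± 0.09, adjusted p = 0.0325), and neither age overlapped the 6-month range. The call was lost without library 4 of 6 months or 1 of 30 months (up to 0.0533) and, at 24 months, without 1, 3 or 4 of 6 months or 1, 2 or 4 of 24 months (up to 0.111) or the filter (0.0502). Hnrnpa1, an antagonist of SR proteins in splice site choice, rose in Kidney from 1604, 1664, 1691 and 1774 to 1909, 1799, 1933 and 2009 (0.18 ± 0.05, adjusted p = 0.0108). Hnrnpdl, a relative of Hnrnpd, rose there from 1019, 1042, 978.6 and 947.7 to 1288, 1227, 1134 and 1144 (0.26 ± 0.08, adjusted p = 0.0163). Both Kidney calls were without overlap and held in each of 16 fits without 1 library, and that of Hnrnpa1 was lost with the 2 ages fitted alone (0.0507). Hnrnpa1 has near-identical processed pseudogenes, and no source used here says how reads were shared with them, so its level is uncertain.

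Hnrnpa1 also gave 1 of the 2 calls at 15 months. In Lung it fell from 4211, 3804, 3553 and 3687 to 3341, 3140, 3290 and 2927 (-0.26 ± 0.06, adjusted p = 0.0413), and stood at 0.12 and 0.08 at 24 and 30 months. The other was Hnrnpr, which fell in Lung from 1703, 1654, 1506 and 1587 to 1434, 1379, 1361 and 1367 (-0.22 ± 0.05, adjusted p = 0.0306). Neither range overlapped its 6-month range, but 10 and 7 of 16 fits without 1 library lost the call (up to 0.129 and 0.111). For Hnrnpr these left out 1, 2 or 4 of 6 months or any one of 15 months; for Hnrnpa1 the same or 1 or 3 of 24 months or 1 of 30 months. With the 2 ages alone and with no filter the adjusted p was 0.0507 and 0.0576 for Hnrnpr, and 0.0522 and 0.0689 for Hnrnpa1. Hnrnpa2b1 fell in Kidney at 24 months, from 6110, 6474, 6471 and 6368 to 5549, 6063, 5552 and 5570 (-0.16 ± 0.05, adjusted p = 0.0499). That call lies at the threshold and was missed in 13 of 16 fits without 1 library (up to 0.131), all but those without 2 of 24 months or 3 or 4 of 30 months. It was missed as well with edgeR (0.052), a pseudocount of 5 (0.0505) and no filter (0.114).

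Among the hnRNP U genes, Hnrnpul1 rose in Muscle at 30 months from 1302, 1360, 1268 and 1297 to 1527, 1384, 1874 and 1476 (0.25 ± 0.07, adjusted p = 0.0309). Library 3 was far above the others, the groups did not overlap, and the call was lost without any one library of 6 months (up to 0.0824), without the filter (0.0514) and with 2 ages alone (0.122). Without library 3 of 30 months, which lay apart, the rise was 0.16 (adjusted p = 0.039). Hnrnpu itself, a scaffold protein of the nucleus, had its highest 30-month change in Muscle too (0.31), where library 3 had 5291 normalised reads and the other 3 had 3460 to 3532; it did not pass in any tissue. Of 40 pairs for the K, L, M and R genes, limma-trend and edgeR called 0 at 24 and at 30 months, where 6.55% and 12.9% of all pairs were called. DESeq2 called 2 and 1, and 4 and 3 had an unadjusted p under 0.05 in limma-trend. Hnrnpm showed the narrowest span of these at 30 months, from -0.15 (Aorta) to 0.02 (Heart).

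Several calls fell in tissues where markers of immune cells moved as well. Macrophage markers rose at 30 months for 9 of 10 genes in Kidney, Liver, Heart and Muscle and 7 of 10 in Lung and Brain, and for 0 of 10 in Aorta and Skin. Their summed level went from 2058 to 2446 normalised reads at 6 months to 4798 to 12300 at 30 months in Kidney, and from 5243 to 7690 up to 11700 to 34530 in Liver. In Lung 9 of 10 T and NK cell markers rose (summed 1236 to 1780, then 2326 to 4319), and in Kidney 9 of 9 tested. B and plasma cell markers reached a sum of 88650 in a Kidney library and 154500 in a Lung library at 30 months, against at most 6362 and 16310 at 6 months. In each of those tissues 5 of 10 of them rose. In Liver 9 of 10 rose (summed 3081 to 4832, then 6299 to 9007), as did 8 of 10 T and NK cell markers. No listed immune marker of these 3 lists was at 0 throughout. Of 10 cycling-cell markers, 1 rose in Lung and none fell or rose in Kidney or Liver. Kidney libraries 3 and 4 of 30 months had the lowest rank correlations of that tissue (0.977). Without these libraries 7 of 30 genes passed, 5 of them among the 7 called in the main fit. The share of all genes in that Kidney fit is not given here. Srsf3 (-0.22, adjusted p = 0.105) and Hnrnpa1 (0.14, 0.105) were lost, and Hnrnpab (-0.21, 0.0215) and Hnrnph3 (-0.34, 0.0328) passed. Summed neutrophil markers did not overlap between 6 and 30 months, and were higher at 30, in every tissue but Skin. Of the neutrophil markers tested, 3 of 3 passed in Liver, 2 of 3 in Kidney and 1 of 3 in each of Brain, Heart and Muscle. None passed in Aorta (3 tested), Lung (8) or Skin (4). In Aorta, 0 of 7 adipocyte markers passed, and their sum went from 209100 to 289900 at 6 months up to 292200 to 337600 at 30 months, without overlap. In Kidney 3 of 7 adipocyte markers rose (summed 815.3 to 915.3, then 1086 to 1892). The mitochondrial share of reads also differed without overlap between 6 and 30 months in Aorta (26.9 to 31.3%, then 23.7 to 26.1%), Liver (8.64 to 9.85%, then 6.72 to 8.13%) and Lung (3.24 to 3.68%, then 3.72 to 4.39%). In Kidney the 24-month libraries (13.2 to 13.9%) lay below all those of 6 months, which reached 16.5%. The part of mitochondrial share or cell composition in the changes above was not tested.

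Whether a gene's change from 6 to 30 months depended on the tissue was tested with a limma-trend F test over the libraries of all tissues. It passed for 5 of 31 genes, against 32.2% of all 21469 genes tested. A single filter over all libraries kept the 21469, so genes expressed in few tissues are among them. Of the 31 genes, 30 passed the filter within every tissue, and the shares were not matched for this. The 5 genes were Srsf3 (adjusted p = 0.000152), Hnrnpa1 (0.00415), Srsf1 (0.0076), Srsf7 (0.0161) and Srsf2 (0.0326). Srsf3 spanned -0.535 in Aorta to 0.332 in Liver, Hnrnpa1 -0.255 in Aorta to 0.417 in Liver, and Srsf1 -0.31 in Kidney to 0.21 in Lung. Srsf7 ran from -0.45 in Aorta to 0.08 in Muscle and Srsf2 from -0.255 in Aorta to 0.133 in Liver. Srsf10, with calls of opposite sign in Kidney and Lung, did not pass (0.0747). The result for Srsf7 was lost without Aorta library 2 or 3 of 6 months (up to 0.0564), and that for Srsf2 without 2 or 4 of 6 months or 1 or 3 of 30 months of Aorta (up to 0.136) and with edgeR (0.0592). Without Aorta library 2 of 6 months 3 of the 31 genes passed, and without Heart library 4 of 24 months 12 did. The share of all genes in those fits is not given here, so these counts cannot be set against 32.2%. Hnrnpc (0.75) and Hnrnph3 (0.156) showed no difference between tissues that this test could find.

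The mean of the 8 within-tissue changes, an estimate added after the data were seen, passed for 8 of 31 genes, close to the share over all genes (23.4%). Of these, 7 were lower (8.99% of all genes were) and 1 was higher (14.4%). The lowest means were those of Hnrnpc (-0.246 ± 0.035, adjusted p = 1.66e-08), Hnrnph3 (-0.19 ± 0.04, 2.29e-05) and Hnrnph1 (-0.18 ± 0.03, 1.86e-05). Hnrnph1 was lower in 7 of 8 tissues, the exception being Lung. Smaller falls were found for Srsf7 (-0.14 ± 0.04, 0.00374), Hnrnpa2b1 (-0.11 ± 0.03, 0.00398), Srsf6 (-0.09 ± 0.03, 0.00837) and Srsf3 (-0.09 ± 0.04, 0.044), each lower in 6 or 7 tissues. Srsf5 was higher in 7 of 8 tissues (0.14 ± 0.04, adjusted p = 0.0118). The call of Srsf3, which rose in Liver, was lost in 30 of 65 fits without 1 library (up to 0.0812). The other 7 held in each. Srsf12 counts among the 31 genes here, since a single filter over all libraries kept it. Its mean (0.172 ± 0.167, adjusted p = 0.507) includes tissues with almost no reads of it. The shares of all genes are of the same genes as in the test between tissues, with the same limit.

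**Figure D5:**
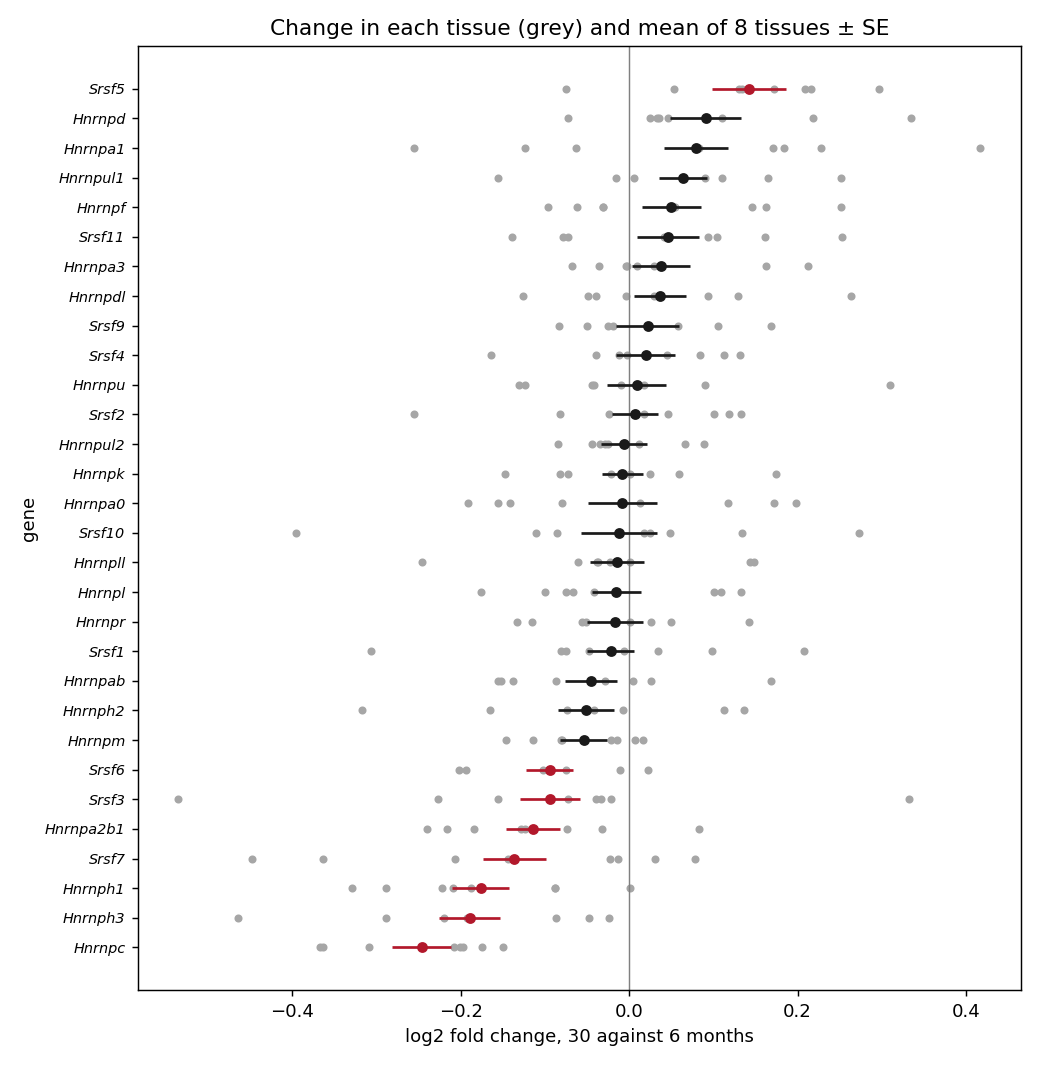
Grey points give the log2 fold change at 30 against 6 months in each of the 8 tissues. Larger points give the mean of the 8 with its SE, red where adjusted p is under 0.05. Srsf12, which passed the filter within a tissue in Brain alone, is left out. Hnrnpc has all 8 points between -0.37 and -0.15, while the points of Srsf3 run from -0.535 to 0.332.

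The 7 lists of 114 other genes cover the splicing machinery, SR protein kinases, other RNA-binding regulators and nonsense-mediated decay. Over these lists 54 of 885 pairs of gene and tissue passed at 30 months (6.1%, where 12.9% of all pairs passed). Of the 54, 31 were higher and 23 lower. Core proteins of the small nuclear ribonucleoproteins had 5 of 96, among them Snrpb, lower in Brain (-0.28, adjusted p = 0.00475) and Lung (-0.18, 0.0392), and Snrnp70, a protein of the U1 particle, higher in Kidney (0.235, 0.0111). Factors of the 3′ splice site and the U2 particle had 3 of 112, with U2af2 lower in Brain (-0.195, 0.0156). Factors of the tri-snRNP had 4 of 136, with Prpf6 lower in Liver (-0.53, 0.018). The SR protein kinases, which phosphorylate SR proteins, had 0 of 63 in limma-trend, with 5 at an unadjusted p under 0.05; other tools were not run for this list. SR-related genes had 5 of 112, including Tra2b (-0.37, 0.0307) and Srrm2 (0.26, 0.0166) in Kidney, and nonsense-mediated decay had 3 of 80, including Smg8 (-0.50, 0.0189) and Upf3a (0.25, 0.045) in Aorta. The list of other RNA-binding regulators had most, 34 of 286 (11.9%; 22 higher). In it Rbm3, which encodes a cold-inducible protein, rose in 6 tissues, from 0.435 ± 0.1 in Brain (adjusted p = 0.011) up to 1.07 ± 0.15 in Liver (0.000377). Mbnl1, a muscleblind splicing regulator, rose in Lung (0.53 ± 0.06, adjusted p = 0.000103).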

How the data were processed

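RNA was extracted with RNAiso Plus and made into libraries with the Illumina Stranded mRNA Prep, per the labels' protocols. The submitters' processing notes list RSEM, STAR, DESeq2 and FastQC, no versions, and the build GRCm39; which annotation was used is not stated there. The authors deposited signal values, 1 column per library in a file for each tissue, with no column unused. Scaling each column by 1 factor gave whole reads within 0.01 reads, so the values are gene reads divided by a size factor. Since they are not counts, the main test was limma-trend (limma 3.58.1 under R 4.3.3) on log2(value + 1), with a mean for each age over the 16 libraries of a tissue and a filter at a minimum count of 10 (filterByExpr, edgeR 4.0.16). Alternatives were edgeR and DESeq2 1.42.0 on the recovered reads, TMM scaling, a pseudocount of 5, no filter, 2 ages alone, a replicate block and leaving out libraries. Scripts were tested on simulated data and used the R package data.table (1.17.8), Python 3.11.15, pandas 2.3.3 and matplotlib 3.10.9.

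Members and gene lists were chosen with earlier results of these data known. Values in every library are given for the 6 members called at 30 months in most tissues (ties by smallest adjusted p), for the 2 highest and 2 lowest called members of each tissue and age, and for some others chosen after their values were seen. The 5 smallest adjusted p-values are given for the test between tissues, and pathway examples come from each list's 2 smallest per tissue. Replicates differed beyond counting noise in every tissue (chi-square per degree of freedom at least 2.41).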

Additional observations from a re-analysis of the deposited data

Results flagged for a closer look

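For 5 genes the F test over all tissues found that the 30-month change depended on the tissue: Srsf3 (adjusted p = 0.000152), Hnrnpa1 (0.00415), Srsf1 (0.0076), Srsf7 (0.0161) and Srsf2 (0.0326). In 2 of the 61 groups behind a call, a single library lay apart from the other 3 by Dixon's test. These were the highest library of Hnrnpa2b1 in Kidney at 24 months, with a gap of 0.96 of the group's range, and the highest of Hnrnpc in Lung at 24 months, with 0.836. Chance alone picks out about 1 group in 20.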

How the results depend on the processing

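Each single-gene result called in the main fit was refitted under the alternatives, and no direction of these calls reversed. Of the refits, 1447 kept their side of the threshold and 206 lost the call, and the causes were not tested. Results not called in the main fit are left out, so calls gained do not show in this tally. It pools calls of single tissues with those over all tissues. At 30 months DESeq2 called 5 genes in Aorta, 2 in Brain and 5 in Muscle. TMM scaling left 0 in Brain. Without the filter 0 passed in Aorta, Brain and Heart and 1 in Muscle, where more genes were tested. With 2 ages alone 0 passed in Brain and Muscle and 6 in Heart. At 24 months DESeq2 called 1 in Aorta, 2 in Liver, 1 in Muscle and 3 in Skin, and edgeR 1 in Skin. TMM scaling gave 4 in Lung and 2 in Skin. Without the filter Kidney had 1, Liver 0 and Lung 3, and with 2 ages alone Brain had 1, Liver 3 and Muscle 3. Kidney had 5 without both 30-month libraries 3 and 4. At 15 months DESeq2 called 1 in Liver, 2 ages alone gave 1 in Heart and 0 in Lung, and no filter 0 in Lung.

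Leaving out 1 library at a time gave these ranges of genes called. At 30 months Aorta had 0 to 5, Brain 0 to 1, Heart 0 to 7, Kidney 6 to 9, Liver 0 to 5 (0 without library 4 of 6 months), Lung 4 throughout, Muscle 1 to 5 (5 without library 2 of 30 months) and Skin 0. At 24 months Aorta, Brain and Muscle had 0 to 1, Heart 0, Kidney 0 to 4, Liver 0 to 2, Lung 2 to 7 (2 without library 2 of 24 months) and Skin 0 to 3. At 15 months Heart and Liver had 0 to 1, Lung and Muscle 0 to 2 and the others 0. The test between tissues gave 3 to 12 and the mean of 8 tissues 7 to 10. Shares of all genes under the alternatives are not given in this section, so its counts are not set against them.

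With a replicate block, 0 genes passed in Aorta (Srsf3, 0.0553) and 0 in Heart (Srsf7, 0.0543) at 30 months, and Kidney had 5 at 24 months; no other count moved by over 1.5 times. The 24-month calls of Hnrnpa2b1 in Kidney (0.0548) and Srsf1 in Lung (0.0745) were lost. With libraries of 1 age and number linked across tissues (estimated correlation 0.0146), 7 genes passed for the mean of 8 tissues and Srsf3 did not (adjusted p = 0.0612). Between ages of a tissue, deviations of same-numbered libraries correlated between -0.531 and 0.467, with medians per tissue of -0.063 to 0.051. Those of differently numbered libraries correlated between -0.502 and 0.585, with medians of -0.032 to 0.016. The same-number median was the lower in Skin alone. These correlations lie within a tissue, so they do not show whether a number links tissues.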
